A study of Homo sapiens with 12 samples.

Results

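The BCL2 family of apoptosis regulators was examined in temozolomide (TMZ) sensitive and TMZ resistant glioblastoma cells. Its 10 members were chosen by gene symbol among the 58174 genes of the expression tables. No expression value entered the rule, but earlier results of these data were known when the choice was made. They were 5 pro-survival genes (BCL2, BCL2L1, BCL2L2, MCL1 and BCL2A1), 2 effector genes (BAX and BAK1) and 3 BH3-only genes (BBC3, PMAIP1 and BCL2L11).

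Proteins of this family decide at the outer membrane of the mitochondrion whether a stressed cell dies. BAX and BAK1, once activated, form pores in that membrane and release cytochrome c, which starts the caspase cascade. Pro-survival proteins hold the effectors in check by binding them, and BH3-only proteins, several of which are made after DNA damage, bind the pro-survival proteins and free or activate the effectors. TMZ is an alkylating drug whose lesions in DNA can end in this mitochondrial form of cell death, and cultured glioma cells are widely described as leaning on BCL2L1 and MCL1.

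The messenger RNA of 2 glioblastoma cell lines, U-87 MG (U87) and U-118 MG (U118), was sequenced. Each line gave 3 libraries of sensitive cells and 3 libraries of cells resistant to TMZ at 50 µM, so that 12 libraries in 4 groups were compared. Per the study's methods, the cells of both lines were sorted as negative for CD133 and CD15 and grown with BMP2, and the resistant cells were aggregates that appeared after prolonged exposure to TMZ. Nothing says that the 3 libraries of a group came from separate cultures, so p-values measure only the spread between these libraries, which may be technical.

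Expression was given as TPM, each transcript's share of its library on a fixed total, already divided by transcript length, so levels of different genes can be set beside each other. TPM keeps no read counts, and the depth behind each value is therefore unknown. The tables of the lines were made separately, and levels of U87 and U118 are given side by side without a test. A gene was tested in a line when it reached 1 TPM in at least 3 of the 6 libraries. It was called higher or lower in resistant cells when 2 conditions held in limma on log2(TPM + 1), an adjusted p under 0.05 and a change no smaller than 1 on the log2 scale. This scale understates the change of genes near or below 1 TPM.

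The libraries as a whole set limits on the U118 comparison. Across 16382 genes, the rank correlation of the U118 resistant libraries was 0.808 to 0.839 with the U118 sensitive libraries, but 0.895 to 0.909 with U87 sensitive and 0.907 to 0.913 with U87 resistant libraries. The U118 resistant libraries were thus closer to the other line than to the sensitive cells of their own line, and every U118 value below rests on them. Mitochondrially encoded genes took 12.9 to 16.9% of TPM in U87 sensitive and 22.2 to 23.7% in U87 resistant libraries, against 7.42 to 19.7% and 13.2 to 29.9% in U118. U118 resistant library 1, with 13.2%, stood apart from libraries 2 and 3, and U118 sensitive library 3, with 19.7%, from libraries 1 and 2, with 7.42 and 8.55%. Without U118 sensitive library 3, 2 of the 9 members still tested were called in U118, BBC3 higher and BCL2 lower. In that fit 28.7% of all genes tested were called in either direction, and 20.1% of all genes tested were called lower. Of the 7 glioma markers examined, VIM, CD44 and NES were expressed in every library, whereas GFAP, S100B and SOX2 stayed under 1 TPM in all 12. OLIG2 was 1.45 to 4.45 TPM in U87, at most 0.0524 TPM in U118 sensitive and 0.570 to 1.05 TPM in U118 resistant libraries. The summed TPM of 7 fibroblast markers was 229 to 235 in U87 sensitive, 425 to 508 in U87 resistant, 1202 to 1618 in U118 sensitive and 294 to 662 in U118 resistant libraries. Endothelial and epithelial markers summed to at most 1.20 and 1.72 TPM, and the 4 immune markers to at most 16.6 TPM, in U118 resistant cells, where most came from CSF1R. The part of these differences in the results below was not tested. The median of all genes tested lay at a log2 fold change of -0.24 in U87 and -0.52 in U118, so the position of a gene relative to that median is given where it matters.

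In U87, no member was called among the 9 tested, against a background of 10.8% of all 13845 genes tested (3.03% higher and 7.79% lower). With the adjusted p alone, 3 of the 9 passed, with BCL2L1 and BBC3 higher and BAK1 lower, against 39.1% of all genes. The same 3 had an unadjusted p under 0.05. Over all genes, median-ratio scaling moved the split of U87 calls from 419 higher and 1078 lower to 663 higher and 543 lower. In U118, 3 of 10 members were called, against 35.3% of all 15527 genes tested. BBC3 was higher (background 8.64%), and BCL2A1 and PMAIP1 were lower (background 26.6%), of which BCL2A1 had to differ, as given below. With the adjusted p alone, BCL2 joined them as a lower gene, which made 4 of 10 against 51.3% of all genes. Median-ratio scaling moved the U118 split over all genes from 1341 higher and 4134 lower to 2337 higher and 1981 lower.

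The sequences just before the RefSeq transcription start are shown for the 3 members called in U118, to show the letters before that start. They are the 250 bases upstream of the RefSeq start in assembly GRCh38.p14, read 5′ to 3′ on the strand of the gene. BBC3 lies on the minus strand (chr19:47232668-47232917), PMAIP1 on the plus strand (chr18:59899746-59899995) and BCL2A1 on the minus strand (chr15:79971197-79971446). The gene positions given below come from another annotation, GENCODE, with other starts. By those positions the BCL2A1 window lies inside its gene, and the BBC3 and PMAIP1 windows overlap their genes in part. Capitals mark matches on either strand to the short promoter elements known as the GC box, searched with the letters GGGCGG, which Sp-family factors can bind. They also mark matches to the letters TATAAA, used to search for the core promoter element bound by the general transcription machinery. A match shows the letters only, and whether any is bound or used was not tested.
BBC3: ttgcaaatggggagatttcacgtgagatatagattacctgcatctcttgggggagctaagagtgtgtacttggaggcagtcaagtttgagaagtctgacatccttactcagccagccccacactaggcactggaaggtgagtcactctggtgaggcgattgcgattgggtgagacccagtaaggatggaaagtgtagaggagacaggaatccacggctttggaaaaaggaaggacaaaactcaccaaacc
PMAIP1: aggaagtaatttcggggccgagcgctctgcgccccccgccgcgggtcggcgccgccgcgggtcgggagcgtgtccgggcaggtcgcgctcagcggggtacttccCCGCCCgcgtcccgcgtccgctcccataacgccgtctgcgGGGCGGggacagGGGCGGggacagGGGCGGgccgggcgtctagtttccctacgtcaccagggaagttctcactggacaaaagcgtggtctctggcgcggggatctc
BCL2A1: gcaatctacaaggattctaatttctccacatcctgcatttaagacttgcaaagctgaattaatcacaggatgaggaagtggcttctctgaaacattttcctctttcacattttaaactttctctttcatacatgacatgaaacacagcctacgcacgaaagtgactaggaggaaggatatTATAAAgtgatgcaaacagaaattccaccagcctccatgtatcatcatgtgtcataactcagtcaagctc
The PMAIP1 window held GGGCGG 4 times, at bases 105, 145, 157 and 169 from its 5′ end, with no overlap between the matches. The BCL2A1 window held TATAAA once, at base 181, and no GGGCGG. The BBC3 window held neither, which says only that these letters are not in this window of a gene with several annotated transcripts. GGGCGG was present in 42.6% and TATAAA in 10.7% of all 35116 promoter windows of the same length. The NF-kappa B site, found in 9.96% of windows, was absent from these 3 windows. MCL1 and BCL2L2 had no window in the table used.

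Among the pro-survival genes, BCL2L1 gave the most abundant transcript in all 4 groups. BCL2L1 (ENSG00000171552, chr20:31664452-31723989, minus strand, GRCh38) encodes BCL-XL, which binds and restrains both effectors. In U87 it stood at 127, 114 and 117 TPM in sensitive libraries 1 to 3 and at 159, 151 and 158 TPM in resistant libraries 1 to 3. All resistant libraries were above all sensitive libraries, with a log2 fold change of 0.39 ± 0.07 (SE) and an adjusted p of 0.00560, short of the fold threshold. In U118 it stood at 181, 160.3 and 142 TPM in sensitive and 190.4, 190.5 and 189 TPM in resistant libraries. The ranges were again apart, and the 3 resistant libraries lay within 2 TPM of each other. The U118 log2 fold change of 0.24 (95% interval -0.20 to 0.68) did not pass the test (adjusted p = 0.316). Relative to the median of all genes, BCL2L1 stood 0.63 higher in U87 and 0.76 higher in U118 on the log2 scale. With libraries scaled by the median ratio of their genes, the log2 fold change was 0.65 in U87 and 0.80 in U118, with adjusted p of 0.00584 and 0.0209. An antisense RNA at this locus, ABALON, was listed at 5.78 to 13.0 TPM, and whether strand was used in counting is not stated.

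MCL1 (chr1:150574551-150579738, minus strand), a short-lived protein that cells must keep making, was the second pro-survival transcript. U87 sensitive libraries 1 to 3 had 23.8, 35.5 and 29.8 TPM and resistant libraries had 33.3, 31.6 and 36.3 TPM. These ranges overlapped, and the log2 fold change of 0.19 (95% interval -0.17 to 0.56) did not pass the test (adjusted p = 0.357). U118 sensitive libraries had 75.7, 77.8 and 81.3 TPM, and resistant libraries had 79.7, 34.2 and 39.3 TPM. Resistant library 1 lay inside the sensitive range and the other two far below it, so that the log2 fold change of -0.71 ± 0.31 (SE) had an adjusted p of 0.0822. Without resistant library 1 it was -1.07 with an adjusted p of 0.000585, in a fit where the median of all genes was -0.76. Under median-ratio scaling MCL1 was -0.16 in U118 (adjusted p = 0.518) and 0.45 in U87 (adjusted p = 0.0292), and neither was called.

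BCL2L2 (chr14:23298790-23311759, plus strand), which encodes the pro-survival protein BCL-W, had the same split among the U118 resistant libraries. It was at 12.5, 16.2 and 15.8 TPM in U87 sensitive and at 9.94, 9.93 and 16.4 TPM in U87 resistant libraries. In U118 it was at 19.4, 14.8 and 8.35 TPM in sensitive and at 28.7, 4.91 and 4.27 TPM in resistant libraries. Resistant library 1 was the highest of all 12 libraries and libraries 2 and 3 were the lowest. The log2 fold changes of -0.30 in U87 (adjusted p = 0.311) and -0.57 ± 0.62 (SE) in U118 (adjusted p = 0.459) did not pass the test. Without resistant library 1 the U118 value was -1.37 (adjusted p = 0.00627), beside a median of -0.76 for all genes. Under median-ratio scaling BCL2L2 was -0.06 in U87 (adjusted p = 0.854) and -0.08 in U118 (adjusted p = 0.912). BCL2L2 shares its strand and exons with the read-through gene BCL2L2-PABPN1, listed at 3.15 to 17.8 TPM, and the reads of the pair could be split between them. In U118 resistant libraries 1 to 3 the read-through gene had 12.8, 14.4 and 15.2 TPM, and the summed TPM of the pair was 26.8 ± 12.8 (SD, n = 3) against 25.3 ± 7.14 (SD, n = 3) in sensitive cells.

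BCL2 (chr18:63123346-63320128, minus strand), the founding member of the family, was a minor transcript in these cells. It had 2.06, 3.34 and 2.09 TPM in U87 sensitive and 2.16, 0.960 and 1.03 TPM in U87 resistant libraries, with overlapping ranges. The U87 log2 fold change of -0.57 ± 0.24 (SE) had an adjusted p of 0.108. In U118 it had 5.95, 6.94 and 5.61 TPM in sensitive and 3.26, 2.41 and 2.20 TPM in resistant libraries. Every U118 resistant library was below every sensitive one, with a log2 fold change of -0.99 ± 0.23 (SE) and an adjusted p of 0.00635, just short of the fold threshold and so not called. It passed the call in 5 of 13 alternatives, down to -1.25 with a pseudocount of 0.001 and at -1.11 without resistant library 1. Under median-ratio scaling the U118 value was -0.55 (adjusted p = 0.0263).

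BCL2A1 (chr15:79960889-79971446, minus strand), an NF-kappa B target that is known mainly from blood cells, reached 1 TPM in 1 group only. It was listed at 0 in all U87 libraries except resistant library 2, which had 0.283 TPM, and it was not tested in U87. U118 sensitive libraries had 7.55, 5.38 and 4.70 TPM, and U118 resistant libraries had 0.169, 0.147 and 0.186 TPM. The lowest sensitive library was thus far above the highest resistant library. BCL2A1 passed the filter only through the sensitive libraries, so a lower value in resistant cells had to follow. Its log2 fold change was -2.54 ± 0.21 (SE), given as a description with no test. The fibroblast markers, 1202 to 1618 TPM in U118 sensitive and 294 to 662 TPM in U118 resistant libraries, were also lower in summed level, and their part was not tested. Of the 4 immune markers, PTPRC and CD3E were at or near 0 in all libraries, whereas CSF1R was 1.34 to 1.43 TPM in U118 sensitive and 9.47 to 15.1 TPM in U118 resistant libraries, and ITGAM at most 0.175 TPM and 0.659 to 1.45 TPM.

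Within the pro-survival set, BCL2L1 supplied 71.8 ± 4.67% (SD, n = 3) of the summed TPM in U87 sensitive and 76.8 ± 1.87% in U87 resistant cells. In U118 the share was 60.6 ± 1.87% in sensitive and 75.2 ± 10.6% in resistant cells. MCL1 supplied 17.8 ± 3.29% and 16.6 ± 0.490% in U87, and 29.7 ± 3.71% and 19.3 ± 6.22% in U118. Every U118 resistant library had a higher BCL2L1 share than every U118 sensitive library, but resistant library 1, at 63.0%, exceeded the highest sensitive library, at 62.5%, only slightly. The U87 ranges overlapped. The pro-survival sum itself was 166 ± 2.75 TPM in U87 sensitive and 203 ± 9.26 TPM in U87 resistant cells, and 266 ± 23.5 and 256 ± 39.7 TPM in U118.

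**Figure D1:**
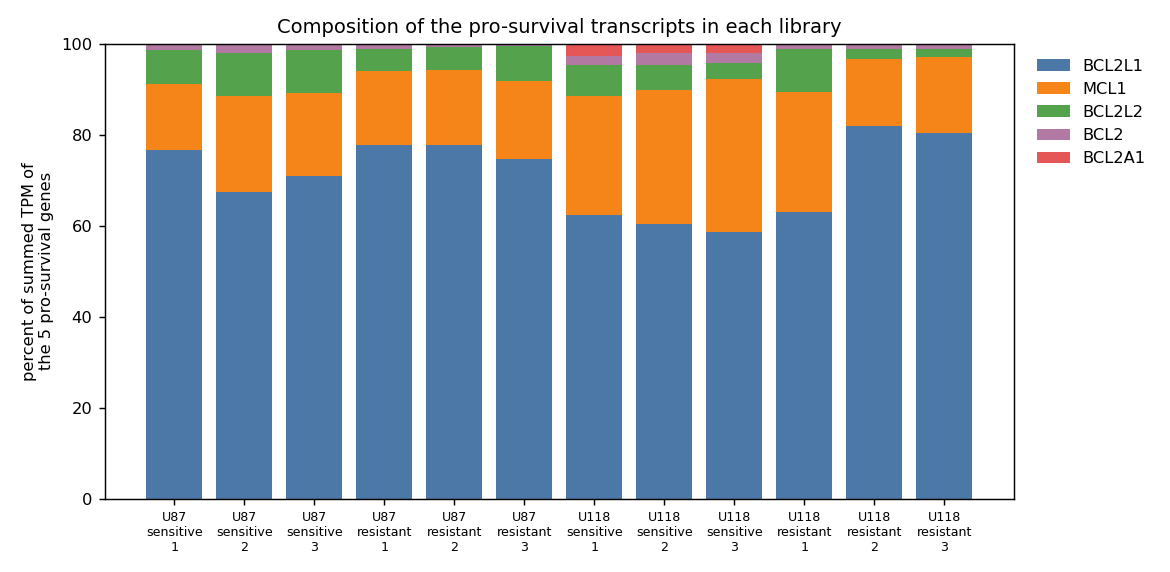
Share (percent) of each pro-survival gene in the summed TPM of the 5 genes, 1 stacked bar for each library. BCL2L1 filled 63.0% of the bar of U118 resistant library 1 and over 80% in libraries 2 and 3, and the BCL2A1 segment was visible only in U118 sensitive cells.

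Of the effectors, BAX was expressed far above BAK1. BAX (chr19:48954815-48961798, plus strand) encodes the effector that moves from the cytosol to mitochondria when activated. U87 sensitive libraries had 271, 267 and 275 TPM and resistant libraries 264, 262 and 235 TPM, so that all resistant libraries were slightly below all sensitive ones. The log2 fold change of -0.10 (95% interval -0.26 to 0.06) did not pass the test (adjusted p = 0.295). U118 sensitive libraries had 215, 221 and 155 TPM and resistant libraries 159, 199 and 186 TPM. These ranges overlapped, with a log2 fold change of -0.11 (95% interval -0.61 to 0.39) and an adjusted p of 0.701. The sign of the BAX change depended on the scaling, since median-ratio scaling gave 0.16 in U87 and 0.45 in U118.

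BAK1 (chr6:33572547-33580293, minus strand), the effector that resides in the mitochondrial membrane, had 30.8, 27.4 and 25.5 TPM in U87 sensitive and 19.5, 19.3 and 20.5 TPM in U87 resistant libraries. The U87 ranges were apart, with a log2 fold change of -0.47 ± 0.11 (SE) and an adjusted p of 0.0131, short of the fold threshold. Under median-ratio scaling it was -0.22 (adjusted p = 0.292). In U118, BAK1 had 31.1, 26.7 and 17.1 TPM in sensitive and 21.3, 18.7 and 21.8 TPM in resistant libraries. The U118 ranges overlapped, and the log2 fold change of -0.23 (adjusted p = 0.482) became 0.31 under median-ratio scaling.

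The ratio of BAX to BCL2L1 TPM is free of the scaling between libraries. It was 2.28 ± 0.120 (SD, n = 3) in U87 sensitive and 1.63 ± 0.128 in U87 resistant cells, and 1.22 ± 0.148 and 0.956 ± 0.107 in U118. In U87 the sensitive libraries ranged from 2.14 to 2.36 and the resistant libraries from 1.49 to 1.74. In U118 they ranged from 1.09 to 1.38 and from 0.837 to 1.05. The ratio was lower in every resistant library than in every sensitive library of its line, although 3 libraries against 3 cannot give an exact permutation p below 0.1. Of all single genes tested, 53.4% in U87 and 58.6% in U118 had ranges that did not overlap. The share for ratios of gene pairs was not computed.

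In U87 none of the 3 BH3-only members was called, and in U118 BBC3 was called higher and PMAIP1 lower. BBC3 (ENSG00000105327, chr19:47220822-47232766, minus strand) encodes PUMA, a BH3-only protein made after DNA damage that binds all pro-survival proteins, and it was the only member called higher. U87 sensitive libraries had 2.40, 2.99 and 2.55 TPM and resistant libraries had 6.93, 7.05 and 4.70 TPM. U118 sensitive libraries had 5.21, 6.27 and 2.81 TPM and resistant libraries had 15.6, 11.7 and 12.6 TPM. In both lines each resistant library was above each sensitive library, and the mean TPM was 2.35 times and 2.80 times that of sensitive cells. The log2 fold change was 0.97 ± 0.19 (SE) in U87, with an adjusted p of 0.00644 and just under the fold threshold, and 1.36 ± 0.29 (SE) in U118, with an adjusted p of 0.00473. Under median-ratio scaling both lines passed the call, at 1.18 in U87 and 1.84 in U118. The change in U118 minus that in U87 was 0.38 (95% interval -0.39 to 1.15), which did not pass the test (adjusted p = 0.422).

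PMAIP1 (ENSG00000141682, chr18:59899948-59904306, plus strand) encodes NOXA, a BH3-only protein known for binding MCL1. U87 sensitive libraries had 2.96, 7.86 and 4.21 TPM and resistant libraries had 7.14, 4.96 and 7.73 TPM, with overlapping ranges. The U87 log2 fold change of 0.41 (95% interval -0.34 to 1.15) did not pass the test (adjusted p = 0.351). U118 sensitive libraries had 34.3, 30.9 and 51.4 TPM and resistant libraries had 33.2, 11.5 and 15.3 TPM. Resistant library 1 lay within the sensitive range, and libraries 2 and 3 were below all sensitive libraries. PMAIP1 was called lower in U118, at -1.03 ± 0.38 (SE) with an adjusted p of 0.0462. The call was lost when any of the 5 libraries other than resistant library 1 was left out, with log2 fold changes up to -0.72 and adjusted p up to 0.167, and under median-ratio scaling, at -0.49 (adjusted p = 0.165). Without resistant library 1 it was -1.45 (adjusted p = 0.00154).

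BCL2L11 (chr2:111119378-111168447, plus strand) encodes BIM, which binds all pro-survival proteins and can activate BAX directly. It had 2.83, 1.63 and 1.46 TPM in U87 sensitive and 1.28, 1.89 and 3.37 TPM in U87 resistant libraries. In U118 it had 3.64, 3.24 and 2.35 TPM in sensitive and 1.69, 2.59 and 2.30 TPM in resistant libraries. Ranges overlapped in both lines, and the log2 fold changes of 0.07 (adjusted p = 0.865) and -0.35 (adjusted p = 0.223) did not pass the test. The long noncoding gene MIR4435-2HG, listed at 84.2 to 213 TPM, overlaps BCL2L11 on the opposite strand, so without knowledge of the counting strand its level is uncertain.

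The make-up of the 3 BH3-only members was apart between the groups only in U118, and there for BBC3 and PMAIP1. BBC3 supplied 28.1 ± 3.69% (SD, n = 3) of the summed TPM of the 3 genes in U87 sensitive and 41.9 ± 10.9% in U87 resistant cells, and 10.9 ± 5.38% and 39.4 ± 7.58% in U118. PMAIP1 supplied 50.1 ± 13.5% and 43.7 ± 7.04% in U87, and 82.3 ± 7.60% and 53.6 ± 11.0% in U118. In U87 the ranges of both shares overlapped. In U118 the BBC3 share of every resistant library, at 30.9% or more, was above that of every sensitive library, at 15.5% or less. The sum of these 3 genes as a percent of the pro-survival sum was 5.77 ± 1.37 and 7.38 ± 0.168 in U87, with overlapping ranges. In U118 it was 17.8 ± 4.77 and 13.6 ± 2.87, again with overlap. Other BH3-only genes, such as BAD and BID, were outside this sum. Mean BAD was 139 and 121 TPM in U87 sensitive and resistant cells, and 105 and 146 TPM in U118. Mean BID was 38.4 and 29.5 TPM in U87, and 37.6 and 51.8 TPM in U118.

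Within U87, BAX, BCL2L1 and MCL1 led the order by mean TPM in both groups, and the ranges of BAX and BCL2L1 did not overlap. In U118 sensitive cells the order was the same, but BAX and BCL2L1 overlapped, and PMAIP1 followed MCL1 at 38.9 ± 11.0 TPM (SD, n = 3). In U118 resistant cells BCL2L1, at 190 ± 0.912 TPM, was listed above BAX, at 181 ± 20.3 TPM, and their ranges overlapped. BAK1, PMAIP1, BBC3 and BCL2L2 followed MCL1 in that group, and neighbours in this order overlapped. BCL2, BCL2L11 and BCL2A1 were at or below 6.94 TPM, 3.64 TPM and 7.55 TPM in all 12 libraries.

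Counting members whose sensitive and resistant libraries did not overlap gave 4 of the 9 tested in U87 (BCL2L1, BAX, BAK1 and BBC3) against 53.4% of all genes tested. It gave 4 of 10 in U118 (BCL2, BCL2L1, BCL2A1 and BBC3) against 58.6% of all genes tested. Of these, BCL2A1 passed the filter only through the sensitive libraries, so its ranges had to be apart. BCL2L1 and BBC3 were in both sets, higher in resistant cells each time. The share of all genes that were apart in the same direction in both lines was not computed.

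**Figure D2:**
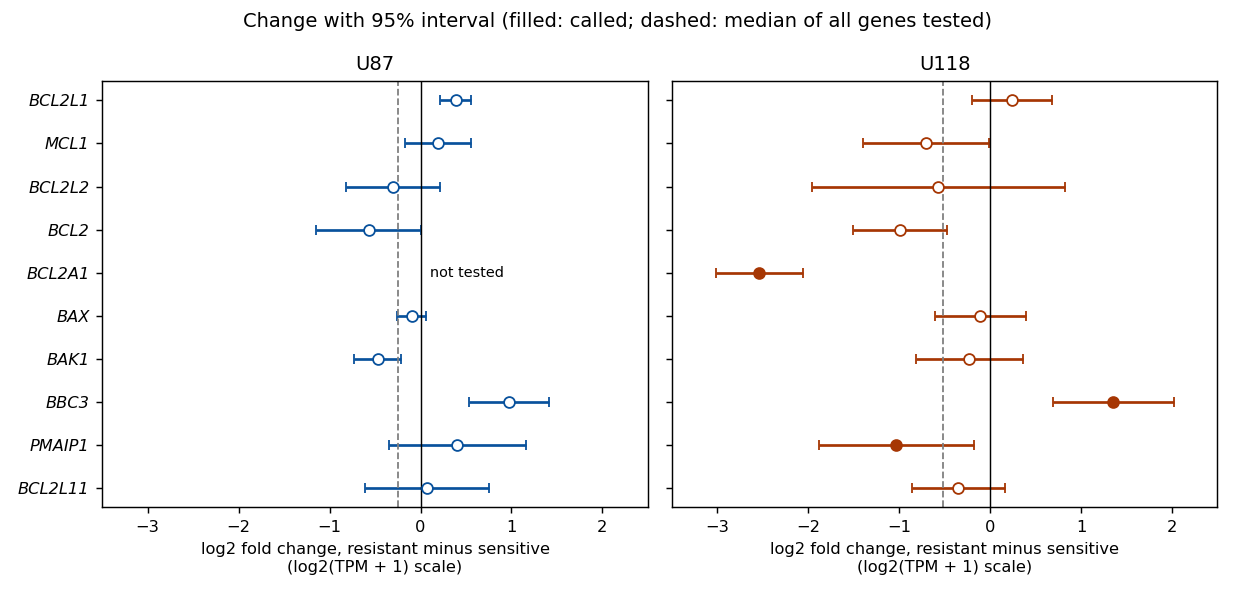
Log2 fold change of resistant minus sensitive cells on the log2(TPM + 1) scale, with 95% intervals from limma, for each member in U87 (left) and U118 (right). Filled points were called, the dashed line is the median of all genes tested (-0.24 and -0.52), and BBC3 lay to the right of 0 in both lines.

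The change in U118 was set against the change in U87 as an interaction over all 12 libraries. Of the 10 members 1 was past the call, against 30.5% of all 16382 genes tested. It was BCL2A1, with a difference of -2.66 ± 0.23 (SE), and since it entered only through the U118 sensitive libraries this value is a description and not a test. PMAIP1 differed by -1.43 (95% interval -2.61 to -0.26, adjusted p = 0.0529) and MCL1 by -0.90 (95% interval -1.70 to -0.10, adjusted p = 0.0735). Without U118 resistant library 1, the same differences were -1.86 (adjusted p = 0.00509) and -1.27 (adjusted p = 0.000550), and both were called. In that fit 37.6% of all genes were called, and the median difference of all genes went from -0.24 to -0.42. Under median-ratio scaling with all libraries, PMAIP1 was -1.18 (adjusted p = 0.0325) and called, and MCL1 was -0.65 (adjusted p = 0.0314), short of the fold threshold. BCL2L1 differed by -0.14 (95% interval -0.52 to 0.24) and BAX by -0.01 (95% interval -0.48 to 0.46), neither of which passed the test.

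The genes around the family were described by lists. Of 13 other BCL2 proteins, 8 were tested in U87, where 1 was called lower and none higher. Over all U87 genes tested, 3.03% were called higher and 7.79% lower, and over all U118 genes 8.64% and 26.6%. These shares stand beside every count of a list below that is given without another scaling. Under median-ratio scaling, 8.71% of all U87 genes tested were called, and 3.92% of all were lower. For U118 the same scaling gave 28.1% called, and 12.9% of all were lower. Those shares stand beside the counts of a list under that scaling. The U87 gene called lower was HRK, a BH3-only gene known from neurons, which went from 9.14, 11.8 and 8.47 TPM in sensitive to 2.92, 3.29 and 1.51 TPM in resistant libraries, with a log2 fold change of -1.62 and an adjusted p of 0.00250. Of the 7 tested in U118, 2 were called lower and none higher. They were BNIP3L at -1.54 (adjusted p = 0.00293) and BNIP3 at -1.04 (adjusted p = 0.0140), which both act in the removal of mitochondria by autophagy. BNIP3L was higher in U87 resistant cells, at 0.98 with an adjusted p of 0.0102, short of the fold threshold. Under median-ratio scaling the U118 values were -0.99 and -0.49, neither was called, and the counts of the list became 1 higher and 0 lower in U118 and 1 higher and 1 lower in U87.

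All 11 apoptosome and caspase genes were tested in both lines. None was called in U87, where the median of the list was -0.46 against -0.24 for all genes. In U118, where the list median of -0.51 stood beside -0.52 for all genes, 1 was called lower and none higher. This was APAF1, the scaffold that cytochrome c assembles into the apoptosome, with 6.25, 7.43 and 6.61 TPM in sensitive and 1.77, 2.17 and 2.09 TPM in resistant libraries. Its log2 fold change of -1.37 (adjusted p = 0.000792) became -0.92 under median-ratio scaling, which was not called, and 1 other gene of the list was then called higher in U118.

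Of 7 inhibitor of apoptosis (IAP) genes, 5 were tested in U87 and 1 was called lower. BIRC5, or survivin, which also serves in cell division, went from 78.4 to 89.8 TPM in sensitive to 32.0 to 33.0 TPM in resistant libraries, a log2 fold change of -1.37 with an adjusted p of 0.000107. Of the 6 tested in U118, 2 were called lower. BIRC2, which encodes the ubiquitin ligase cIAP1, went from 66.3, 34.1 and 54.9 TPM in sensitive to 7.54, 7.79 and 4.73 TPM in resistant libraries, at -2.75 with an adjusted p of 0.000108. BIRC6 was at -1.13 with an adjusted p of 0.00667, and at -0.63 and not called under median-ratio scaling.

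Of 9 genes of transcriptional control and its targets, 7 were tested in each line. CDKN1A, which encodes the cell cycle inhibitor p21, was the gene of these lists called in both lines. It had 125, 117 and 117 TPM in U87 sensitive and 804, 642 and 838 TPM in U87 resistant libraries, and 101, 39.4 and 71.2 TPM in U118 sensitive and 687, 534 and 453 TPM in U118 resistant libraries. The groups were far apart in both lines, with log2 fold changes of 2.65 (adjusted p = 3.02e-05) and 3.04 (adjusted p = 0.000114). No other gene of the list was called in U87, and 1 was called lower in U118. It was FOXO3, which encodes a forkhead factor known to drive BH3-only genes, with 16.7, 17.4 and 18.9 TPM in sensitive and 11.5, 6.46 and 6.58 TPM in resistant libraries, at -1.06 with an adjusted p of 0.00967. The call was lost without resistant library 2 or 3, at a log2 fold change up to -0.94, and under median-ratio scaling, at -0.55 (adjusted p = 0.0246). That scaling gave 3 higher calls for the list in U87. In U118 it gave 2 higher calls and 0 lower.

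Of 6 genes of protein turnover, all tested, none was called in U87 and 2 were called lower in U118. CUL5, a cullin of ubiquitin ligases, was at -1.45 (adjusted p = 0.00132) and MARCHF5, a ubiquitin ligase of the mitochondrial outer membrane, at -1.25 (adjusted p = 0.0107). Under median-ratio scaling they were at -0.96 and -0.75, and neither was called. None of the 6 outer membrane partners was called in either line, with list medians of -0.35 in U87 and -0.20 in U118. Under median-ratio scaling 1 of them was called higher in U118, where the list median was 0.36.

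**Figure D3:**
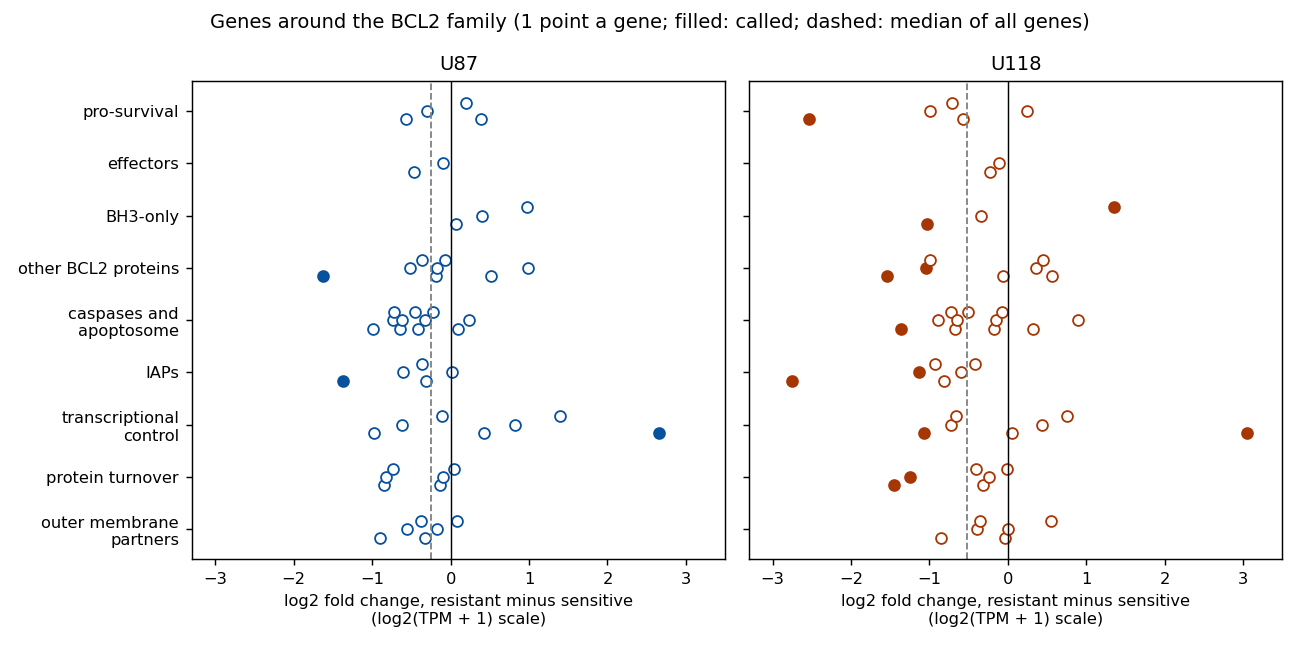
Log2 fold change of resistant minus sensitive cells (log2(TPM + 1) scale), with 1 point for each tested gene, for the family by role and for 6 lists of related genes, in U87 (left) and U118 (right). Filled points were called and the dashed line is the median of all genes tested. CDKN1A, at 2.65 and 3.04, was the gene farthest to the right in both lines.

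Genes with the profile most like that of a called member were found over all 12 libraries among 13217 genes, by the root mean square distance of log2 values centred on each gene's mean. BBC3 was nearest to SESN2, which encodes a stress-induced sestrin, at a distance of 0.29, and to NALCN, a sodium leak channel gene, at 0.30. PMAIP1 was nearest to the zinc transporter gene SLC39A6, at 0.21, and to AHR, the aryl hydrocarbon receptor gene, at 0.23. BCL2A1 did not pass the level filter of this comparison.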

How the data were processed

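The mRNA-seq libraries of U87 and U118 cells (12 libraries, 3 in each of 4 groups) were assigned to groups and replicates by their titles. The authors deposited TPM values for each gene, 1 table for each line. Their processing notes name FastQC 0.11.2, Trimmomatic 0.36, HISAT2 2.0, bedtools 2.26.0 and GRCh38, whereas the quantification tool and annotation are not given in the sources used here. TPM sums to a fixed total in each library, so a rise in mitochondrially encoded genes lowers the values of all others. Depth is unknown, and no counting interval or detection limit could be given.

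Of 58174 identifiers, 57392 could be given a symbol and 57836 were in GENCODE release 29 (GRCh38), from which gene positions were taken. Promoter windows came from RefSeq (GRCh38.p14), matched by symbol for 8 of the 10 members, and the bases after the start were left out.

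Values were fitted as log2(TPM + 1) by lmFit and eBayes (with trend) of limma 3.58.1, run under R 4.3.3, for each line alone and, for the difference between lines, over all 12 libraries with an interaction (at least 1 TPM in 3 libraries). p-values were two-sided and Benjamini-Hochberg adjusted over all genes tested. The fit was tested on simulated data. Tables and figures were made in Python 3.11.15 with pandas 2.3.3 and matplotlib 3.10.9. The members and lists were chosen with earlier results of these data known. Text names all members and, of each list, genes called in both lines and the 2 called genes with the largest change in each line. Genes in which the lines differed were added by their interaction test. One gene of the list of transcriptional control and 1 promoter motif are not reported here.

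Alternatives were pseudocounts of 0.1 and 0.001, no filter, a filter on the mean (10 TPM or more), median-ratio scaling, TPM without mitochondrially encoded genes, a replicate block, no trend, no fold threshold and leaving out each library. Deviations of libraries with the same number correlated at -0.01, -0.06 and -0.05 in U87 and 0.14, 0.05 and 0.09 in U118, so the numbers were not taken to pair the libraries.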

Additional observations from a re-analysis of the deposited data

Results flagged for a closer look

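For 8 genes the change with resistance differed between the lines in the interaction test of limma (difference given as the U118 change minus the U87 change, log2 scale, adjusted over all genes, of which 30.5% were called). BCL2A1 differed by -2.66, but it reached 1 TPM only in the U118 sensitive libraries, so that the filter fixed this outcome and no test is given. HRK differed by 1.16 (adjusted p = 0.00987), BNIP3L by -2.52 (adjusted p = 0.000267), ENDOG, a mitochondrial nuclease gene, by 1.63 (adjusted p = 0.00291) and BIRC2 by -2.15 (adjusted p = 0.00483). HRK was at most 1.28 TPM in the U118 libraries, against 8.47 to 11.8 TPM in U87 sensitive cells, and its mean was lower in resistant cells of both lines. Mean BNIP3L was 13.1 and 26.2 TPM in U87 sensitive and resistant cells, and 78.7 and 26.9 TPM in U118. Mean ENDOG was 40.4 and 23.7 TPM in U87, and 15.7 and 28.7 TPM in U118. Mean BIRC2 was 7.91 and 4.48 TPM in U87, and 51.7 and 6.69 TPM in U118. The U118 resistant libraries were closer to U87 than to U118 sensitive libraries, and the part of this in the differences was not tested.

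Of the genes of transcriptional control and turnover, ATF4, a stress response factor gene, differed by -1.49 (adjusted p = 0.000119), E2F1, a cell cycle factor gene, by 1.72 (adjusted p = 9.71e-05) and MARCHF5 by -1.16 (adjusted p = 0.0273). Mean ATF4 was 139 and 247 TPM in U87 sensitive and resistant cells, and 388 and 245 TPM in U118. Mean E2F1 was 230 and 117 TPM in U87, and 50.8 and 85.2 TPM in U118. Mean MARCHF5 was 16.5 and 15.4 TPM in U87, and 16.6 and 6.83 TPM in U118. The MARCHF5 call was lost in 7 of the 12 fits that left out a library and under median-ratio scaling. The HRK call was lost in 1 of 12, without U87 resistant library 3, and with pseudocounts of 0.1 (0.95, adjusted p = 0.131) and 0.001 (0.85, adjusted p = 0.234), so it rests on the pseudocount of 1. Those of BNIP3L, ENDOG, BIRC2, ATF4 and E2F1 passed in all 12 and under median-ratio scaling.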

How the results depend on the processing

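The U87 count of called members went from 0 to 1, BBC3, with a pseudocount of 0.1 or 0.001, under median-ratio scaling and without mitochondrially encoded genes, and to 3 with no fold threshold. Leaving out a library gave 0 to 1, with 1 without U87 sensitive 2 or resistant 3. Over all U87 genes, the share called was 15.4 and 15.7% with these pseudocounts and 8.71% under median-ratio scaling. It was 9.78% without mitochondrially encoded genes, 39.1% with no fold threshold and 9.38 to 12.6% with a library left out. The U118 count went from 3 to 1 with a mean of at least 10 TPM, where 6 members were tested, and ranged from 1 to 6 with a library left out. It was 1 without sensitive 2, where BCL2A1 was not tested, and 6 without resistant 1, of which 5 were lower. Over all U118 genes, the share called was 31.2% with a mean of at least 10 TPM and 28.7 to 43.6% with a library left out. That share was 30.5% without sensitive 2 and 43.6% without resistant 1, where 38.4% of all genes were called lower. The count for the difference went from 1 to 0 with a mean of at least 10 TPM and to 2 under median-ratio scaling and without mitochondrially encoded genes, and ranged from 0 to 3 with a library left out. It was 0 without any 1 of the U118 sensitive libraries, where BCL2A1 was not tested, 2 without U87 sensitive 2 and 3 without U118 resistant 1. With a mean of at least 10 TPM, 25.1% of all genes tested for the difference were called. The share was 30.3% under median-ratio scaling, 31.4% without mitochondrially encoded genes and 25.8 to 37.6% with a library left out. Without U87 sensitive 2 it was 33.1%, and without U118 resistant 1 it was 37.6%.

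Directions reversed for small changes. Under median-ratio scaling BAX was 0.16 in U87, 0.45 in U118 and 0.24 for the difference, BAK1 0.31 and BCL2L11 0.075 in U118, and BCL2L1 0.10 for the difference. Without mitochondrially encoded genes BAX was 0.040, 0.090 and 0.050. With a library left out, BCL2L11 in U87 ranged from -0.18 to 0.29, and the differences of BCL2L2 from -1.07 to 0.18 and of BAX from -0.17 to 0.082. Of 448 alternative values of members, 401 kept direction and side of the threshold, 10 lost a call (all PMAIP1 in U118), 18 gained one (5 of them BCL2 in U118) and 19 reversed. BBC3 in U118 kept its call in all 13 alternatives, at 1.08 to 1.84.

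With the replicate block the counts stayed at 0 in U87, 3 in U118 and 1 for the difference, and 1454, 5581 and 5064 genes were called over all, against 1497, 5475 and 4997. In U118 every library correlated best with its own number, and in U87 they did not, so the block is a hint from the data only. Median-ratio scaling moved the median of all genes to -0.01 in U87 and -0.02 in U118, and the share of higher genes among the calls to 55.0% (28.0% before) in U87 and to 54.1% (24.5% before) in U118. Depth is unknown, which limits BCL2, BCL2A1 and BCL2L11 most.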
